A study of Homo sapiens with 10 samples.

Results

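Chemokine receptors are seven-pass membrane proteins that couple to inhibitory G proteins and steer leukocytes along gradients of chemokines, small secreted ligands. Once engaged they release Gβγ subunits, which feed PI3Kγ and Rac and so drive the actin changes of migration, while GRK kinases and β-arrestins switch the receptor off. In the myeloid lineage CXCR4 retains progenitors in the marrow niche and CXCR2 draws neutrophils out of it. CCR1, CCR2 and CX3CR1 are receptors of monocytes and macrophages, and CXCR3, CCR7 and CXCR5 are best known from lymphocytes and dendritic cells. Here 8 of these receptors, CCR1, CCR2, CCR7, CXCR2, CXCR3, CXCR4, CXCR5 and CX3CR1, were followed in NB4 cells. They were taken from the deposited tables by gene symbol among the 19975 rows of protein-coding genes, and each symbol matched exactly 1 row.

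NB4 is a human cell line derived from acute promyelocytic leukemia. In the knockdown experiment the cells received the empty pLKO.1 puro lentiviral vector (EV) or that vector with 1 of the hairpins shA1 and shB2, which target GSE1, a protein of the LSD1 corepressor complex, and RNA was taken 48 h after transduction. In the inhibitor experiment cells were given DMSO or 2 µM of the LSD1 inhibitor MC2580 for 24 h. Each of the 5 groups has 2 mRNA-seq libraries, all from this 1 line, 10 in all. The measure used here is the base mean, the authors' average over every library of an experiment of its normalised read counts, so that EV, shA1 and shB2 share 1 value and DMSO and MC2580 share another. It has no value per library and no error, and no effect of a hairpin or of the drug was tested here. The level of each receptor is therefore described per experiment, with no p-value, and a base mean that rests on every library cannot be told from one that rests on a few. The depth of each library is unknown for the same reason. In such bulk RNA, fewer cells with a transcript and less of it per cell cannot be told apart.

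Over all genes the base means summed to 40543130 in the knockdown experiment, which has 6 libraries, and to 41201112 in the inhibitor experiment, which has 4. Of the 6 promyelocyte markers examined, 5 had a base mean of at least 10 in each experiment, led by MPO, the myeloperoxidase of primary granules, at 506765 and 824818. Of all protein-coding genes, 63.1% and 63.0% reached 10, so such counts alone do not tell cell types apart. ELANE, which encodes neutrophil elastase, was near 0, with base means of 1.10 and 3.87. The targeted gene GSE1 had base means of 2963 and 4441, which pool control and treated libraries and so do not check the knockdown. Because some of the receptors are better known from lymphoid cells, markers of those cells were read beside them. Of 5 T cell markers, 4 and 2 had a base mean of at least 10 in the knockdown and the inhibitor experiment, with summed base means of 935 and 905. CD3D alone accounted for 866 and 869 of these sums, and CD3E, a defining chain of the same receptor, was at 1.55 and 2.98. Of 5 B cell markers, 4 reached 10 in each experiment, with summed base means of 1253 and 941 that came mostly from CD79B at 1071 and 777. MS4A1, which encodes CD20, was at 0.217 and 0. Of 5 NK cell markers, 2 reached 10 in each experiment, with summed base means of 1307 and 901, of which NCAM1 made up 1286 and 883, while NCR1 and KLRF1 stayed under 1.

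All 8 receptors had reads assigned to them in both experiments, and CXCR4 stood far above the others. For CXCR5, the part of these reads that came from an overlapping gene, described below, was not tested. In the knockdown experiment the 8 base means ranged from 67.3 to 3047 with a median of 169, against a median of 162 over all protein-coding genes, and in the inhibitor experiment from 22.3 to 3880 with a median of 121, against 148. Many of those genes were at 0, and over the protein-coding genes above 0 the medians were 409 and 396, which 2 and 1 of the 8 receptors reached. All 8 reached a base mean of 10 in each experiment, against 63.1% and 63.0% of protein-coding genes. CXCR4, the receptor of CXCL12, contributed 69.4% of the summed base mean of the 8 receptors in the knockdown experiment and 82.8% in the inhibitor experiment. It lay at the 84.8th and 88.4th percentile of protein-coding genes. The remaining receptors lay in the middle of all protein-coding genes listed, from the 45.5th to the 57.2nd percentile in the knockdown experiment and from the 40.8th to the 53.6th in the inhibitor experiment.

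To compare the receptors with one another, each base mean was divided by the summed base means of its experiment, expressed in parts per 1000000 (ppm), and divided by the length of the longest annotated transcript in kilobases. On this scale CXCR4 was at 34.6 in the knockdown experiment and at 43.4 in the inhibitor experiment. This was 8.24 times the next receptor, CXCR3, in the former and 17.8 times the next, CCR1, in the latter. CXCR4 ranked first with the longest transcript, with the coding length and with no length correction. CCR1 came next in both experiments with the coding length and with no length correction.

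Among the receptors of inflammatory chemokines on myeloid cells, CCR1, which binds CCL3, CCL5 and related ligands, was the highest. Its base mean was 438 in the knockdown experiment and 266 in the inhibitor experiment, or 4.08 and 2.44 ppm per kilobase. CCR2, the receptor of CCL2 through which monocytes leave the marrow, had base means of 205 and 194, or 1.44 and 1.33 on the scale per length. CXCR2, the neutrophil receptor of CXCL8 and the CXCL1 group, had base means of 98.4 and 53.3, or 0.850 and 0.454 ppm per kilobase. CX3CR1, the fractalkine receptor of patrolling monocytes, was lower still, with base means of 67.3 and 22.3 and levels per length of 0.510 and 0.167. CCR1 and CCR2 thus stood above CXCR2 and CX3CR1 in both experiments.

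The receptors known from lymphocytes and dendritic cells ranged from near the top of the order to its end. CXCR3, the receptor of the interferon-induced chemokines CXCL9, CXCL10 and CXCL11, had a base mean of 317 in the knockdown experiment and of 85.0 in the inhibitor experiment. Its level in ppm per kilobase, 4.20 and 1.11, was rank 2 of the 8 in the former and rank 5 in the latter. With the coding length or no length correction CXCR3 was rank 3 in the knockdown experiment. CCR7, which guides dendritic cells and T cells to lymph nodes, had base means of 133 and 157, or 1.51 and 1.75 on that scale. CXCR5, the CXCL13 receptor of follicular B cells and helper T cells, had base means of 86.2 and 27.5, and its 0.495 and 0.155 ppm per kilobase made it the lowest of the 8 in both experiments. It changed places with CX3CR1 when the coding length or no length correction was used, and then held rank 7. In the knockdown experiment several neighbours in the order were close: CXCR3 was 1.03 times CCR1, CCR7 was 1.05 times CCR2 and CX3CR1 was 1.03 times CXCR5 per length. In the inhibitor experiment CX3CR1 was 1.07 times CXCR5 per length. With no spread over libraries, these neighbours cannot be ordered.

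CXCR5 requires a further reading of its locus, because its transcript overlaps a gene on the other strand. The authors list CXCR5 as ENSG00000160683.4. On GRCh38 in GENCODE release 44, CXCR5 lies on the plus strand of chromosome 11, from 118883892 to 118897787, in 2 exons. BCL9L, a coactivator of β-catenin, lies on the minus strand from 118893875 to 118925926. The genes converge, and the 3′ UTRs of their canonical transcripts share 1652 nt, from 118896136 to 118897787. Over all annotated BCL9L transcripts, exons cover 3913 of the 4293 exonic nt of CXCR5, which is 91.1%, including 786 nt of its coding sequence. The authors assigned reads with their own annotation, in which the overlap was not examined and may differ. The base mean of BCL9L was 1624 in the knockdown experiment and 754 in the inhibitor experiment, 18.8 and 27.4 times that of CXCR5. The library kit does not mark the strand of a read, so reads from the shared stretch cannot be told apart by strand, and the part that BCL9L reads have in the CXCR5 value was not tested. The other members were freer of such overlap. CCR1 lies within the span of CCR3 on the opposite strand, but the exons of these genes share 0 nt, and CCR3 had base means of 8.31 and 2.88.

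**Figure D1:**
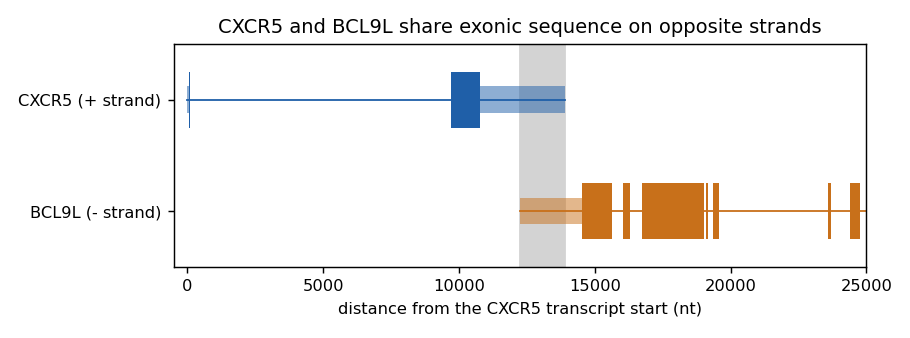
Canonical transcripts of CXCR5 and of the part of BCL9L nearest to it, drawn to scale by distance from the CXCR5 transcript start, with tall boxes for coding sequence, low boxes for untranslated exons, lines for introns and grey for the shared stretch. The last 1652 nt of CXCR5 fall in the last exon of BCL9L, which is transcribed from the other strand.

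The genes lie on 5 chromosomes. CCR1 (46201711 to 46208313, minus strand) and CCR2 (46353864 to 46360940, plus strand) are near each other on chromosome 3, which also holds CX3CR1 (39263495 to 39281735, minus strand). CXCR4 (136114349 to 136119177, minus strand) and CXCR2 (218125289 to 218137251, plus strand) are on chromosome 2, CCR7 (40553769 to 40565472, minus strand) is on chromosome 17 and CXCR3 (71615916 to 71618511, minus strand) is on chromosome X, all on GRCh38. Their coding sequences are alike in length, from 1065 nt for CCR1 to 1245 nt for CXCR3, whereas their longest transcripts range from 1861 nt for CXCR3 to 4293 nt for CXCR5.

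The promoter windows of the receptors differed in CpG content, and 1 of the 3 CXCR4 windows held the most. RefSeq promoters on GRCh38.p14, 250 bases before to 50 after a start, were at hand for 7 of the 8 receptors. The window at the most upstream of the 3 CXCR4 starts had a GC content of 66.7% and 27 CpG dinucleotides, against a median of 21 over 22199 promoters of protein-coding genes. Of the 11 windows of the receptors, that window alone reached both a GC content of 55% and an observed to expected CpG ratio of 0.65. Of all protein-coding promoters, 53.9% reached both. The windows at the other CXCR4 starts held 14 and 9 CpG, with GC contents of 53.7% and 52.0%. The windows of the other receptors held between 1 and 9 CpG. The single CXCR5 window held 9, as many as the last CXCR4 window, and CXCR3 held 1. The 250 bases before the start of CXCR4 and CXCR5, the highest and the lowest per kilobase of the longest transcript, are given here. They read 5′ to 3′ on the strand of the gene, with each CpG in capitals. They are chr2:136118150-136118399 on the minus strand for CXCR4, with 24 CpG, and chr11:118893142-118893391 on the plus strand for CXCR5, with 7.
CXCR4: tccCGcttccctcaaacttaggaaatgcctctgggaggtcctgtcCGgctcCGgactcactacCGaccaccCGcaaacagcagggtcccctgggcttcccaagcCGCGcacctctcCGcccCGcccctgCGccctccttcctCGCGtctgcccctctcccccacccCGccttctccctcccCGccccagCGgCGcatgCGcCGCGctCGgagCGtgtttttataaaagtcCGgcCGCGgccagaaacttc
CXCR5: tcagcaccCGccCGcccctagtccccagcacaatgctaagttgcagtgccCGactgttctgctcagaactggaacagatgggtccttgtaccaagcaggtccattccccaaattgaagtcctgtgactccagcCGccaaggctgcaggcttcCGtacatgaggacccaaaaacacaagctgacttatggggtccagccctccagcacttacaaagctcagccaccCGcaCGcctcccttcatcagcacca
The CXCR5 start in RefSeq lies inside the intron of the GENCODE transcript, upstream of its second exon. These compositions describe the windows and were not tested against the levels.

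Most other chemokine receptors were scarcely detected. Of the 15 other typical and atypical receptors examined, 4 had a base mean of at least 10 in the knockdown experiment and 3 in the inhibitor experiment, with medians of 1.91 and 1.98. The share over all protein-coding genes was 63.1% and 63.0%. The highest in the knockdown experiment were CCRL2, a non-signalling receptor that binds chemerin, at 28.8, the mucosal receptor CCR10 at 27.2 and the CXCL16 receptor CXCR6 at 20.7, and in the inhibitor experiment their base means were 12.8, 45.7 and 31.0. Of the summed base means of all 23 receptors, the 8 described here held 97.3% in the knockdown experiment and 97.6% in the inhibitor experiment. In the knockdown experiment each of the 8 was above each of the 15 per length, while in the inhibitor experiment CCR10 at 0.572, CXCR6 at 0.268 and CCRL2 at 0.183 ppm per kilobase lay above CX3CR1 and CXCR5, and CCR10 also above CXCR2. The 8 were chosen with earlier results of these data known, so that this difference is a description.

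**Figure D2:**
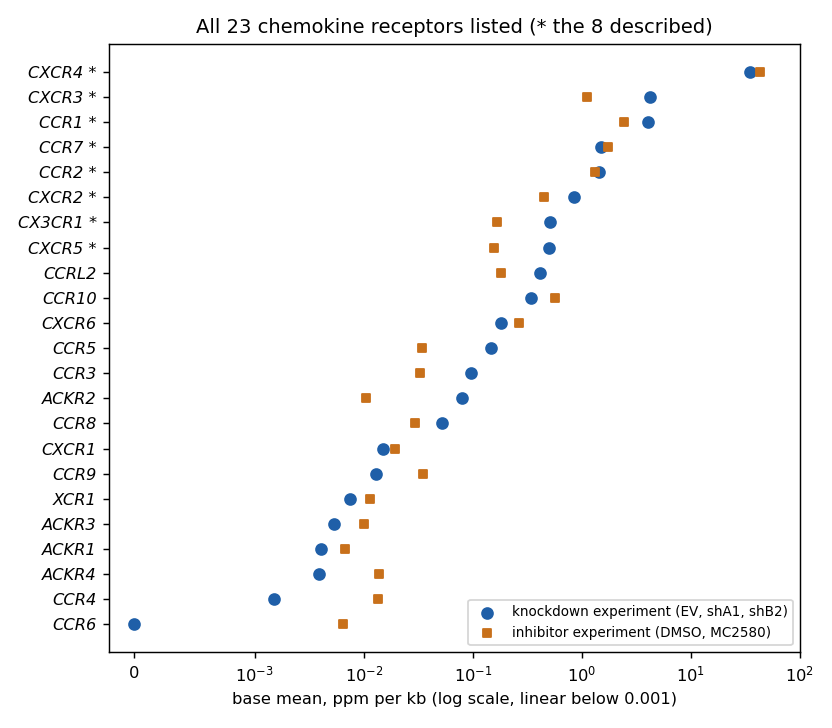
Base mean in ppm per kilobase of the longest transcript for the 23 chemokine receptors listed, with the 8 described here marked by asterisks, on a log scale that is linear below 0.001; circles are the knockdown experiment and squares the inhibitor experiment. CXCR4 is highest in both, and CCR6 is listed at 0 in the knockdown experiment.

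Among 26 ligands of the 8 receptors, 7 reached a base mean of 10 in the knockdown experiment and 5 in the inhibitor experiment, and 10 and 11 were at 0. Over all protein-coding genes, 63.1% and 63.0% reached 10. CCL5, a ligand of CCR1, was highest at 1475 and 1585. It was followed by CXCL8, the main ligand of CXCR2, at 418 and 241, and CCL2, a ligand of CCR2, at 91.2 and 45.8. Some of the other ligands were added to the description after their values were seen. CCL3 was at 19.9 and 8.69, CXCL2 at 15.6 and 7.36 and CCL23 at 14.5 and 10.6. CXCL12, the ligand of CXCR4, had base means of 0.0680 and 0, and CXCL13, the ligand of CXCR5, had 0 and 0.405. CX3CL1, the ligand of CX3CR1, was at 0.188 and 0.125, and the CCR7 ligands CCL19 and CCL21 were at 0 in both experiments and at 0.343 and 0.205. Of the CXCR3 ligands, CXCL10 was at 43.4 and 21.6, CXCL11 at 6.31 and 2.24 and CXCL9 at 0.447 and 0.492. PF4, also a CXCR3 ligand, was at 0 in both experiments. The CCR2 ligand CCL7 was at 2.16 and 0.652, and CCL8 and CCL13, also of CCR2, were at 0 in both. Transcripts of some ligands for CCR1, CCR2, CXCR2 and CXCR3 were thus present in the same cultures. For CCR2 and CXCR3, only CCL2 and CXCL10 of the ligands named here reached a base mean of 10. The ligands named for CXCR4, CXCR5, CX3CR1 and CCR7 were each under a base mean of 1.

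The signalling genes downstream of the receptors were all expressed. Each of the 26 examined reached a base mean of 10 in both experiments, with medians of 4310 and 3646, against 63.1% and 63.0% of protein-coding genes that reached 10. The highest in the knockdown experiment were GRK2, the kinase that starts receptor desensitization, at 34295 and 36737, GNAI2, the main inhibitory Gα subunit of leukocytes, at 29382 and 26052, and the Gβ subunit GNB1 at 15837 and 16223. In the inhibitor experiment GNB2, another Gβ subunit, was above GNB1, at 16940. In ppm per kilobase their median was 17.9 in the knockdown experiment and 16.8 in the inhibitor experiment, against 1.47 and 1.22 for the 8 receptors.

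Set side by side after scaling to ppm, the experiments differed most, among the 8 receptors, for CXCR3, CXCR5 and CX3CR1. The tables were normalised separately, and the experiments differ in vector, time and treatment and pool control with treated libraries, so these sources cannot be told apart and no test was possible. CXCR3 was 3.79-fold higher in the knockdown experiment, at 7.82 ppm against 2.06. CXCR5 was 3.19-fold higher, at 2.13 ppm against 0.667, and CX3CR1 was 3.06-fold higher, at 1.66 ppm against 0.542. BCL9L, which shares exonic sequence with CXCR5, was 2.19-fold higher in the knockdown experiment. Of the 12354 protein-coding genes that reached a base mean of 10 in each experiment, the central 90% had log2 ratios of the inhibitor to the knockdown experiment between -0.99 and 0.66. CXCR3 lay at the 0.550th percentile of these ratios with -1.92, CXCR5 at the 0.979th with -1.67 and CX3CR1 at the 1.08th with -1.61. Of the 12354 genes, 10916 had a base mean of at least 50 in each experiment. CXCR5 and CX3CR1 were at only 27.5 and 22.3 in the inhibitor experiment. The receptors were not compared with genes of like level, so these percentiles do not show how unusual such ratios are at low counts. CXCR2 with -0.91 and CCR1 with -0.75 were at the 6.08th and 9.55th percentile, inside that range. CCR2 at -0.11, CCR7 at 0.22 and CXCR4 at 0.33 were also inside it, the latter pair higher in the inhibitor experiment.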

How the data were processed

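RNA of NB4 cells was prepared by the authors with the TruSeq RNA v2 kit, mapped to hg38 with STAR (version 2.7 in the submitters' processing notes), quantified with RSEM and compared in DESeq2. The deposited signal columns used are the authors' base means over all libraries of an experiment, in 60603 rows; the knockdown table gives them in a pair of columns that are identical in every row. The other deposited columns, the authors' own log2 fold changes, standard errors, Wald statistics and p-values, were not used. The tests between groups, and their pairing by replicate, need values per library and were not run. Low base means did not fall on common steps, so reads were not recovered.

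Base means were scaled to parts per 1000000 of the experiment's sum and per kilobase of the longest GENCODE release 44 transcript. All 98 genes examined matched that release by stable identifier. Named by rule are the 8 receptors, the 3 highest genes of each related list in the knockdown experiment and GSE1. KDM1A, which encodes LSD1, was listed beside GSE1 and had base means of 7648 and 6285 in the knockdown and the inhibitor experiment. The marker lists were set by rule, but not which single markers to name. The single markers, the other ligands, GNB2, CCR3, CCR6 and BCL9L were named after their values were seen. The members and lists were chosen with earlier results of these data known. The ratio and percentile calculations (Python 3.11.15, pandas 2.3.3, NumPy 2.4.6) were tested on simulated data. Alternatives were base mean minimums of 5 and 50, other lengths and other scalings.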

Additional observations from a re-analysis of the deposited data

How the results depend on the processing

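At base mean minimums of 5 and 50, the number of receptors past the minimum stayed at 8 in the knockdown experiment, and in the inhibitor experiment it was 8 and 6, CXCR5 and CX3CR1 being under 50. CXCR4 ranked first under each length choice, of which the canonical transcript was added after the data were seen. Scaling by protein-coding genes, or by the median ratio of the 10916 genes that reached a base mean of 50 in each experiment, changed the sign of no receptor's log2 ratio between experiments, and brought that of CCR2 closest to no difference, at -0.01. Among genes above 0 alone, the receptors' percentiles were lower, at 37.2 to 82.5 in the knockdown experiment and 30.8 to 86.4 in the inhibitor experiment. No paired analysis was possible because the base means pool all libraries of an experiment, which also prevented leaving out single replicates.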
